A study of Schizosaccharomyces pombe with 4 samples.

Results

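The S-phase column of this chromatin immunoprecipitation (ChIP) series gives, for each gene of the fission yeast Schizosaccharomyces pombe, how much DNA came down with the protein Upf1 in a culture synchronised in S phase, as a ratio over input DNA. All 4888 of the 4888 genes in the deposited table have a value there and all were used. The study mapped Upf1 on DNA with Affymetrix tiling arrays, on which the immunoprecipitated (IP) and the input DNA are hybridised to probes that cover the genome. The series holds 1 IP array of the S-phase culture, 1 IP array of an asynchronous culture and 2 input arrays, and both Upf1 columns were divided by the mean of the same 2 inputs.

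The protocol in the labels names cdc25-22 cells and gives no full genotype. The only cdc25-22 strain in the study's strain list was taken to be the one used, which is an inference. It carries upf1-3HA::kanMX6, a haemagglutinin tag on upf1 at its own locus, together with cdc25-22 and auxotrophic alleles of ade6, leu1 and ura4. cdc25-22 is a temperature-sensitive allele of the phosphatase that drives entry into mitosis. These cells were held at 37 °C for 3.5 h, which stops them in G2, and were fixed 60 min after return to 25 °C. The asynchronous IP and both inputs are labelled untreated, and no input taken from synchronised cells was used here. The study had 2 IP arrays of each culture and kept the better one, so each S-phase value rests on 1 array and has no replicate error. No test was therefore run, and the calls below are counts of genes past a fixed fold. The array titles place the S-phase IP in a later year than the asynchronous IP and on another day than 1 of the inputs. Culture and array date therefore cannot be told apart.

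Upf1 is an RNA helicase best known as the core factor of nonsense-mediated decay, the cytoplasmic pathway that destroys mRNAs on which translation stops too early. A protein that binds nascent RNA can be crosslinked to the gene being transcribed, and ChIP then recovers that gene. In S. pombe the histone genes and the targets of the transcription factor MBF are switched on around the G1-S transition, whereas a further wave of genes for mitosis and cell separation is switched on later. Beside each S-phase ratio stand the Pol II ratio, from published arrays of RNA polymerase II phosphorylated on serine 5 of its C-terminal repeat, and the RNA level, from published RNA-seq. Both come from other cultures and neither has an S-phase value.

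Ratios are given as log2 relative to the median gene of the column, so 0 is the median gene and 1 is a ratio 2-fold above it. RNA levels are natural logs of FPKM plus 1. Deposited S-phase ratios lay between 0.0367 and 0.815 with a median of 0.195, so every gene was below input on the deposited scale and only the order and spacing of genes can be read. On the log2 scale the column reached from -2.41 to 2.06 with an SD of 0.48, and its quartiles were -0.26 and 0.29. At least 1.5-fold above the median gene lay 546 genes, 11.2% of the column, and at least 1.5-fold below it 389 genes, 7.96%. For a sense of scale, the gene-by-gene difference between the S-phase and asynchronous columns, expressed per array, had an SD of 0.24, which holds culture differences as well as array error. In the asynchronous column 5.14% of the genes lay at least 1.5-fold above its median gene and 3.36% below. Near the upper threshold the ribosomal protein genes rpl1901 and rps1601 were just inside and tif303, for a subunit of initiation factor eIF3, just outside. Near the lower one nad1 and gpi14 were just inside and mug132 and ste4 just outside.

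Genes that this strain alters were read first. ura4, deleted by ura4-D18 if that strain was used, had an S-phase ratio of -0.25, rank 3614 from the top, and an asynchronous ratio of 0.61. It was thus not at the bottom of the S-phase column, and since neither the strain of the IP nor that of the inputs is settled by the sources used here, the ratio does not tell whether the gene was present. leu1, which carries leu1-32 in that strain, had 1.03 in S phase and 0.24 in the asynchronous column. ade6 had -0.042, cdc25 0.45 and upf1 0.14.

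Genes of central carbon metabolism filled much of the top of the column. Of the 25 highest genes, all 25 had a Pol II ratio at or above its median gene and 2 had an RNA level below the median. adh1, alcohol dehydrogenase, had a log2 S-phase ratio of 1.95, with a Pol II ratio of 1.47 and an RNA level of 6.74. fba1, fructose-bisphosphate aldolase, had 1.92 with a Pol II ratio of 1.52, and eno101, enolase, 1.89 with a Pol II ratio of 1.83. tdh1, glyceraldehyde-3-phosphate dehydrogenase, had an S-phase ratio of 1.85 and shares a near-identical copy, gpd3, which array probes may not separate from it. gpm1, phosphoglycerate mutase, had an S-phase ratio of 1.87 with a Pol II ratio of 1.64, and tpi1, triosephosphate isomerase, 1.58 with 1.93. pyk1, pyruvate kinase, had 1.63 and pgk1, phosphoglycerate kinase, at 1.57. These enzymes are among the most abundant proteins of a cell growing on glucose.

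The remaining genes among the 25 highest had varied functions. The highest of all, SPAC1705.02, is an uncharacterised gene of 635 bp with an S-phase ratio of 2.06, a Pol II ratio of 0.76 and an RNA level of 6.08. pil1, the core component of eisosomes, which line furrows in the plasma membrane, had an S-phase ratio of 1.85 with a Pol II ratio of 1.24. ole1, the fatty acid desaturase, had 1.65 with 1.76, and knh2, a cell surface protein of the Kre9/Knh1 family, 1.67 with 1.35. Mitochondrial proteins among them included isu1, the scaffold on which iron-sulfur clusters are built (1.64, Pol II 0.64), and mpc2, a subunit of the mitochondrial pyruvate carrier (1.54, Pol II 0.87). sap1, an essential DNA-binding protein first known from mating-type switching, had an S-phase ratio of 1.59 with a Pol II ratio of 1.72. rps13, of the small ribosomal subunit, and hta1, for histone H2A, both had 1.47.

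Some of the 25 highest genes stood near or under the median gene in the asynchronous column or near it in Pol II. ecl1, named for its extension of chronological lifespan, had an S-phase ratio of 1.84, 3.57-fold above the median gene, beside a Pol II ratio of 0.026, an RNA level of 2.44 and an asynchronous Upf1 ratio of 0.44. pmp20, a thioredoxin-related chaperone, had an S-phase ratio of 1.65 and an asynchronous one of 0.090, with a Pol II ratio of 1.45. SPNCRNA.120, a non-coding RNA of 118 bp, had an S-phase ratio of 1.51 and an asynchronous one of -1.35, with a Pol II ratio of 2.54, and a gene this short spans few probes. SPCP20C8.01c, an uncharacterised gene with near-identical copies, SPBC337.02c and SPCC569.01c, had an S-phase ratio of 1.53, a Pol II ratio of 0.21 and an asynchronous ratio of -0.041. Overlap makes other entries hard to tell apart. The non-coding prl53 (1.64) and the coding gene SPAC27E2.11c (1.55) overlap over 94.3% of the shorter gene and may share one signal, and so may SPNCRNA.92 (1.58) and pma1 (1.00), the gene of the plasma membrane proton pump, which overlap over 100% of the shorter gene.

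**Figure D1:**
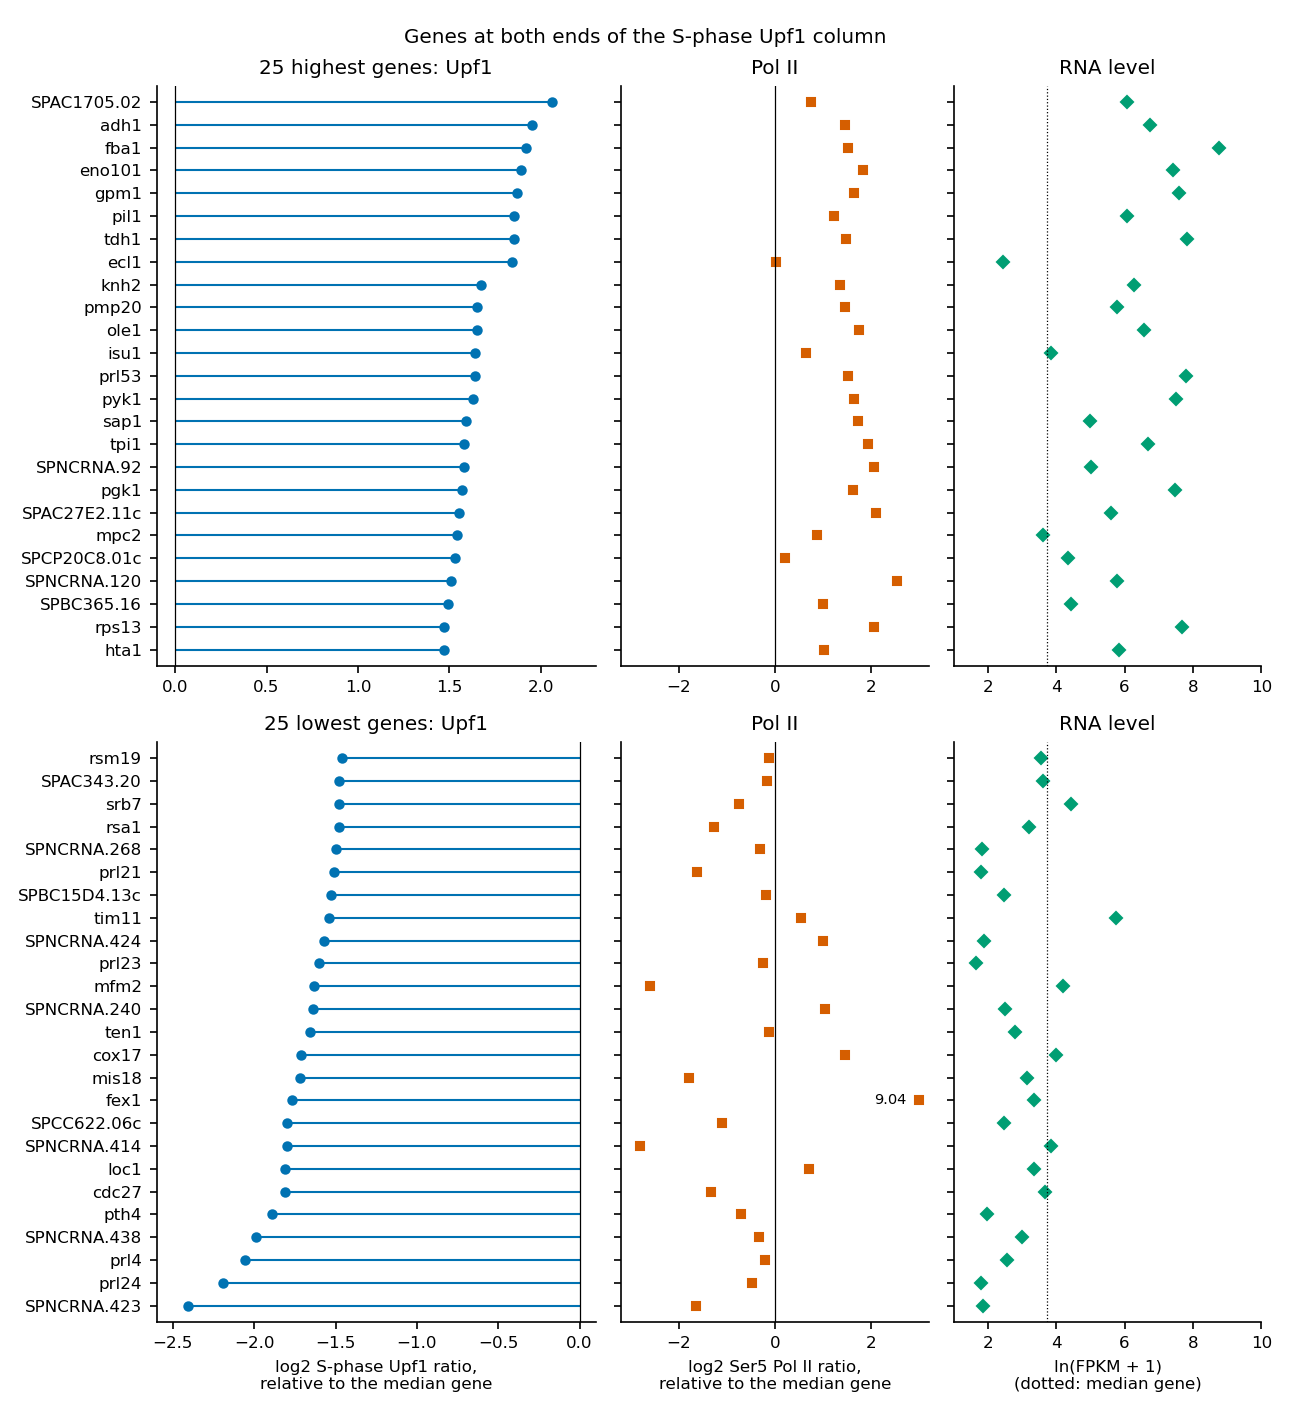
The 25 highest and the 25 lowest genes of the S-phase Upf1 column, one per row, with the log2 Upf1 ratio of the S-phase IP, the log2 Pol II ratio and the RNA level (natural log of FPKM plus 1) side by side; points are single values with no error. All 25 of the highest genes have a Pol II ratio at or above its median gene, against 6 of the 25 lowest.

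The bottom of the column held many non-coding RNAs and genes low in Pol II. Of the 25 lowest genes 10 were non-coding RNAs, 19 stood under the median gene in Pol II and 20 in RNA level. The lowest was SPNCRNA.423, a non-coding RNA of 197 bp, with an S-phase ratio of -2.41, a Pol II ratio of -1.65 and an RNA level of 1.85. The polyadenylated non-coding RNAs prl24 and prl4 followed at -2.19 and -2.06. prl24 had an asynchronous ratio of 0.84 and prl4 one of -1.15, so they stood on opposite sides of the median gene in the other culture.

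Among the coding genes of the lowest 25, cdc27, a subunit of the replicative DNA polymerase delta, had an S-phase ratio of -1.81 with a Pol II ratio of -1.32 and an asynchronous ratio of -1.49. mis18, which acts in loading the centromeric histone, had -1.72 with a Pol II ratio of -1.79. ten1, of the complex that caps telomeres, had -1.66 with a Pol II ratio of -0.12. srb7, a subunit of Mediator, which bridges regulators and RNA polymerase II, had -1.48 with a Pol II ratio of -0.74. mfm2, a precursor of the mating pheromone M-factor, had -1.63, with a Pol II ratio of -2.59 and an RNA level of 4.19. pth4, of the translation release factor family, had -1.89, and rsm19, a mitochondrial ribosomal protein, -1.46. loc1, for a pre-ribosomal protein, overlaps rsm19 over 42.9% of the shorter gene and had -1.81.

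Some of the lowest genes had high Pol II ratios. fex1, a fluoride channel, had an S-phase ratio of -1.77 beside a Pol II ratio of 9.04, the highest of the Pol II column. Its RNA level was 3.34 and its asynchronous ratio 0.39. Its near-identical copy fex2 had an S-phase ratio of 0.26 and a Pol II ratio of -0.45. cox17, a copper chaperone for cytochrome c oxidase, had an S-phase ratio of -1.71, a Pol II ratio of 1.47 and an asynchronous ratio of 0.055. tim11, subunit e of the mitochondrial ATP synthase, had an S-phase ratio of -1.54 with a Pol II ratio of 0.54. Its RNA level was 5.74 and its asynchronous ratio 0.25. lsm6, of the Lsm ring that binds mRNA ends and U6 RNA, had an S-phase ratio of -1.19, a Pol II ratio of 1.97 and an asynchronous ratio of 0.21. cox17, tim11 and lsm6 are short, at 501, 664 and 541 bp, and genes this short span few probes.

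The 100 highest and the 100 lowest genes differed in the readouts that did not choose them. The median Pol II ratio was 1.35 in the 100 highest and -0.48 in the 100 lowest, with quartiles of 0.85 and 1.62 against -1.01 and -0.028, so the ranges between quartiles did not overlap. The median RNA level was 5.72 in the 100 highest, 2.99 in the 100 lowest and 3.74 over all genes. Pol II was under its median gene at 4 of the 100 highest and 75 of the 100 lowest. The annotated genes were also of different make-up. The median length was 1680 bp in the 100 highest, 1038 bp in the 100 lowest and 1804 bp over all genes. Median GC content was 40.4%, 33.8% and 36.8% in the same sets. Non-coding RNAs made up 5 of the 100 highest and 16 of the 100 lowest, against 132 of all 4888 genes, 2.70%. Uncharacterised proteins made up 16 of the 100 lowest, and the 6 among the 100 highest were near their share of all genes, 258 of 4888. Of the 100 highest genes 50 were in one of the 31 functional lists described next and 10 of the 100 lowest, beside 915 of all 4888 genes.

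The counts in each list stand beside 11.2% of all genes above and 7.96% below. Glycolysis stood highest of the 31 lists. Of its 12 genes 11 were at least 1.5-fold above the median gene and 0 below, with a list median of 1.57 beside 0 over all genes. With the trend of the ratio with GC content removed, the list median was 0.96. pgi1, glucose-6-phosphate isomerase, had an S-phase ratio of 1.03 and pfk1, phosphofructokinase, 0.94. The hexokinases, which take glucose into the pathway, split, with hxk2 at 0.92 (Pol II 1.13) and hxk1 at 0.22 (Pol II 0.29). gpd3 had an S-phase ratio of 0.86 beside a Pol II ratio of -0.63. In the 4 fermentation genes, which carry pyruvate on to ethanol, 3 were above and the median was 1.14: pdc101, pyruvate decarboxylase, had 1.35 and adh4 0.94, while adh8 had -0.18. The fermentation median was 0.69 with the GC trend removed. The 5 hexose transporters had 3 above, led by ght8 at 1.09, and ght4 was lowest at -0.30. Their median of 0.60 became 0.50 without the GC trend, under the 1.5-fold threshold. ght8 and ght5 (0.91), both above, are near-identical copies that array probes may not separate.

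Ribosomal protein genes were above the median gene as a body. Of the 81 genes of the large subunit 53 were at least 1.5-fold above and 0 below, with a median of 0.68 and a range from -0.29 to 1.45. Of the 55 genes of the small subunit 35 were above and 0 below, with a median of 0.67. With the GC trend removed these medians were 0.23 for the large and 0.13 for the small subunit, so neither list stayed 1.5-fold above. rpp202, of the acidic stalk, had 1.45 with a Pol II ratio of 1.49, and rps3 had 1.25 with 2.07. At the other end, rpl3001 had an S-phase ratio of 0.13 beside a Pol II ratio of 2.27, and rpl35A02 one of -0.29 beside 0.68. Of 33 translation factor genes 13 were above, led by tef3, elongation factor 3, at 1.37 and tif51, the gene of eIF5A, at 1.19. Ribosome biogenesis genes, which act in making and processing rRNA, had 6 of 88 (6.82%) above and 3 (3.41%) below with a median of 0.012. Both shares were under those of all genes, 11.2% and 7.96%. The mitochondrial ribosome had 0 of 58 above and 7 (12.1%) below. Its median was -0.15, although its median Pol II ratio was 0.00017, that of the median gene. Its highest member was mrp7 at 0.49 and its lowest rsm19, followed by mrpl39 at -1.22.

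Anabolic and nutrient genes held many of the other high values. Of 55 amino acid biosynthesis genes 28 were above and 0 below, with a median of 0.60 beside a median Pol II ratio of 0.48, and a median of 0.27 with the GC trend removed. gln1, glutamine synthetase, had 1.41 with a Pol II ratio of 1.15. ilv5, of valine and isoleucine synthesis, had 1.41 with 1.68, and gdh1, glutamate dehydrogenase, had 1.26 with 0.51. ser1, of serine synthesis, had 0.79 although its Pol II ratio was 0.023, and ser2 of the same pathway had -0.30. The phosphate-responsive genes had 3 of 6 above: the transporter pho84 with 1.08, the acid phosphatase pho1 with 1.06, and pho842 with 1.01. Their median of 0.79 was 0.46 without the GC trend, and of the 6 genes only 1 overlaps no other annotated gene. Its ratio was -0.21 relative to the median of all genes without overlap. Iron genes lay on both sides of the median gene. The repressor fep1 (0.91, Pol II 0.72) was above, and so were the uptake genes fip1 (0.84, Pol II -0.61) and fio1 (0.67, Pol II -0.78), whereas sib1, of siderophore synthesis, had -0.36 and the siderophore transporter str2 -0.60. str2 and rpl6, which had 0.92, overlap over 100% of the shorter gene.

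Of 29 cell wall genes 14 were above and 1 below, with a median of 0.52. psu1, a beta-glucosidase of the cell wall, had 1.24 and the glucanosyltransferase genes gas5 and gas1 1.20 and 1.16, each with a Pol II ratio above the median gene. bgs4, an essential glucan synthase, had 1.10, and chs1, a chitin synthase, -0.51. In the stress list 9 of 21 genes were above and 0 below. sod1, superoxide dismutase, had 1.21, tpx1, a peroxiredoxin, 1.08, and ctt1, catalase, 0.57 with a Pol II ratio of -0.73. Chaperone genes had 5 of 21 above with a median of 0.15, sks2 of the Hsp70 family at 1.26 and hsp16 at -0.53. Lists for housekeeping complexes stood closer to the median gene. The proteasome had 3 of 33 (9.09%) above, under the 11.2% of all genes, with a median of 0.17. The subunits of RNA polymerase II had 0 of 11 above with a median of 0.17.

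Respiratory genes lay past both thresholds. Of 49 genes 8 (16.3%) were above and 7 (14.3%) below, beside 11.2% and 7.96% of all genes, with a median of 0.19. cyc1, cytochrome c, had 1.16 with an RNA level of 6.06. atp17 and atp18, small subunits of the ATP synthase, had -1.15 and -1.43 although their Pol II ratios were 0.57 and 1.32. Their asynchronous ratios were -0.18 and -0.61, and atp18 is a short gene of 479 bp. mRNA decay genes, the list that holds upf1 itself, had 0 of 26 above and 1, lsm6, below. upf1 had an S-phase ratio of 0.14 and upf3 0.15, and upf2, which with them forms the core of nonsense-mediated decay, -0.46.

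**Figure D2:**
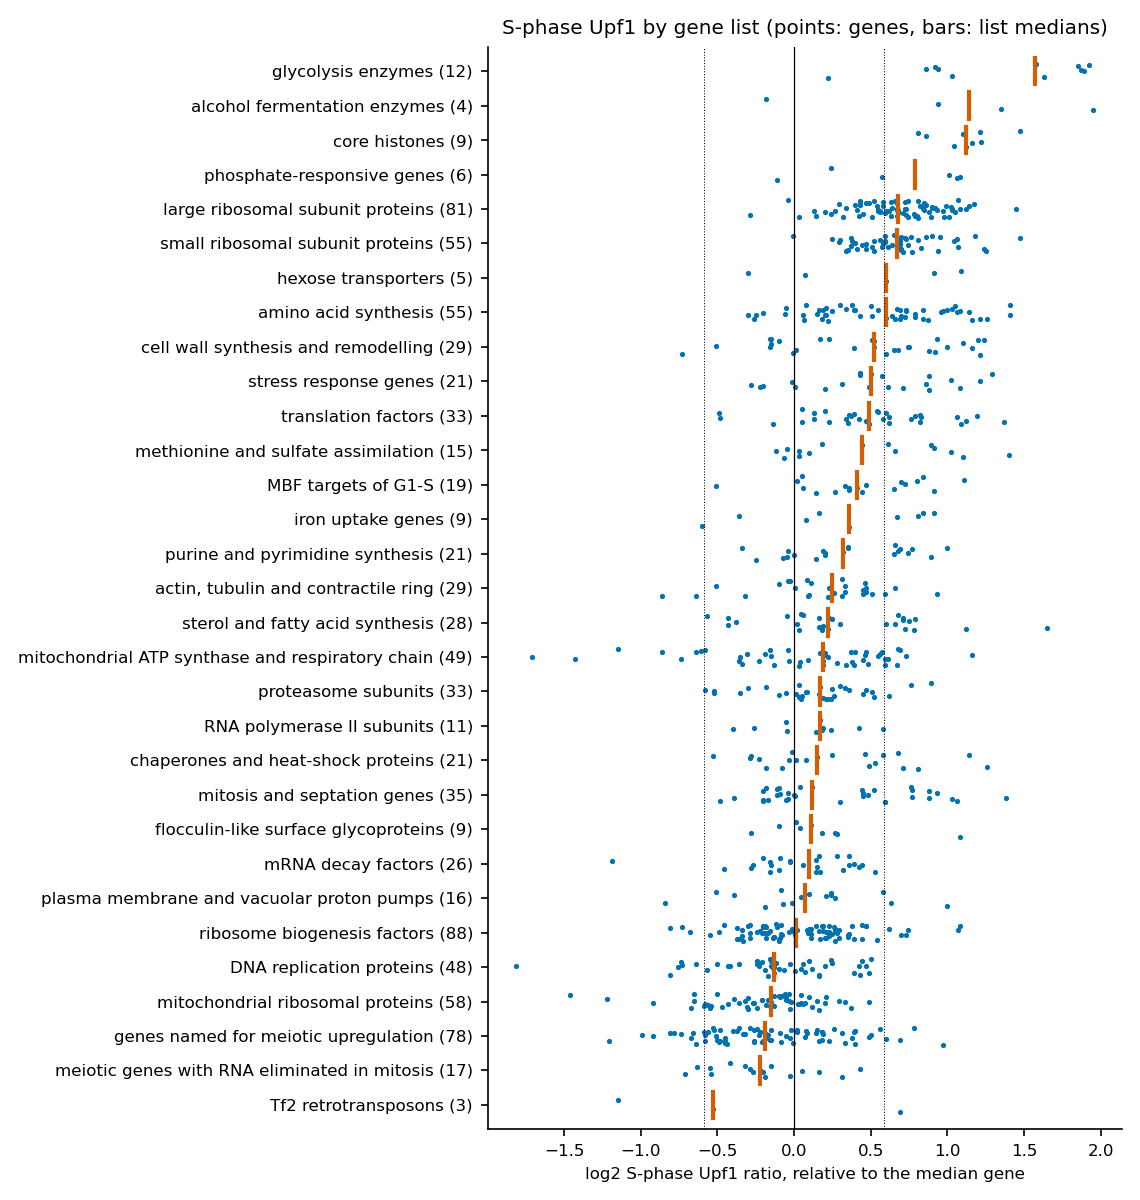
Log2 Upf1 ratio of the S-phase IP for each gene of each functional list (points) with the list's median (bar); the dotted lines mark 1.5-fold above and below the median gene. Glycolysis (median 1.57), fermentation (1.14) and the histones (1.12) stand farthest above 0, and DNA replication, the mitochondrial ribosome, the meiotic lists and the Tf2 retrotransposons have medians below it.

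Lists tied to the cell cycle differed from each other. The 9 histone genes were all at least 1.5-fold above, between 0.81 for hht1 and 1.47 for hta1, with a median of 1.12, which was 1.06 with the GC trend removed. Their median Pol II ratio was 0.95 and their median asynchronous ratio 0.54. The copies differed in Pol II, with htb1 at 1.44 and hta2 at 0.060 beside S-phase ratios of 1.22 and 1.16, and hht3 and hhf3 have near-identical copies that array probes may not separate. Of 19 MBF targets 7 were above and 0 below, with a median of 0.41 beside a median Pol II ratio of -0.094 and a median asynchronous ratio of -0.061. cdc18, the licensing factor of replication origins, had 1.11 in S phase and -0.14 in the asynchronous column. cdc22, the large subunit of ribonucleotide reductase, had 0.91 and 0.022. cig2, the G1-S cyclin, had 0.84, and cdt1, the partner of cdc18, 0.65. mik1, a kinase that restrains mitosis, had 0.27 and mcl1, a replisome protein, -0.51.

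The list of DNA replication proteins did not follow the MBF targets, but cdc18, cdt1 and cdc22 were counted only among the MBF targets. Of the 48 genes in the replication list 0 were above and 6 (12.5%) below, beside 11.2% and 7.96% of all genes. The list median was -0.13, close to its median Pol II ratio of -0.14. dfp1, the regulatory subunit of the Hsk1 kinase, was highest at 0.50. orc6 and orc5, of the origin recognition complex, had -0.81 and -0.76, rfc3, of the clamp loader, -0.74, and cdc27 was the lowest. Genes of mitosis and septation had 11 of 35 above and 0 below, with a median of 0.12. adg1 had 1.38 with a Pol II ratio of -0.68, and eng1 and agn1, glucanases that part the daughter cells, had 0.93 and 0.88 with Pol II ratios of 0.19 and 0.20. slp1, an activator of the anaphase-promoting complex, had 1.06 and spo12 -0.48. Meiotic genes with RNA eliminated in mitosis had 0 of 17 above and 2 (11.8%) below with a median of -0.22. Their median RNA level was 1.89. Genes named for upregulation in meiosis (mug and meu) had 4 of 78 (5.13%) above and 10 (12.8%) below with a median of -0.19. The Tf2 retrotransposons, near-identical copies of each other, had 0.69 for Tf2-13, -0.53 for Tf2-11 and -1.15 for Tf2-10. No readout in the table measures cell cycle stage apart from Upf1 itself, so the label of the culture was not checked.

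Genes with more Pol II had more Upf1 in S phase. Across 4888 genes Spearman's rho between the S-phase ratio and the Pol II ratio was 0.579, and between the S-phase ratio and the RNA level 0.417, as descriptions across genes that are not independent of each other. In the 10% of genes with the highest Pol II ratios 304 of 489 (62.2%) were at least 1.5-fold above, with a median of 0.68. In the 10% with the lowest Pol II ratios 11 were above and 112 below, with a median of -0.31. Pol II and RNA level could be set against each other in genes where they differ. The 753 genes in the top 25% of both had a median S-phase ratio of 0.52, with 336 of them at least 1.5-fold above. The 75 genes in the top 25% of Pol II and the lowest 25% of RNA level had a median of 0.27 with 18 above. The 74 genes in the lowest 25% of Pol II and the top 25% of RNA level had a median of -0.21 with 2 above, so these genes were the lower of the mixed classes.

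Among genes with much Pol II the lists still spread, although their Pol II ratios were not matched. Within the 10% of genes highest in Pol II, 304 of all 489 genes (62.2%) were at least 1.5-fold above. In this class 10 of 10 glycolysis genes and 14 of 14 amino acid genes were above. Their median S-phase ratios were 1.61 and 1.06 and their median Pol II ratios 1.58 and 1.18. The 54 genes of the small ribosomal subunit in the same class had 35 above and a median of 0.67, and the 78 of the large subunit 53 and 0.68. Both ribosomal shares were near the 62.2% of the whole class. The median Pol II ratios of these ribosomal genes were 1.47 and 1.51, higher than that of the amino acid genes. Respiratory genes of that class had 6 of 14 above with a median Pol II ratio of 0.93, and mRNA decay genes 0 of 4 with one of 1.15. Genes in none of the lists had 110 of 208 above with a median of 0.60.

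**Figure D3:**
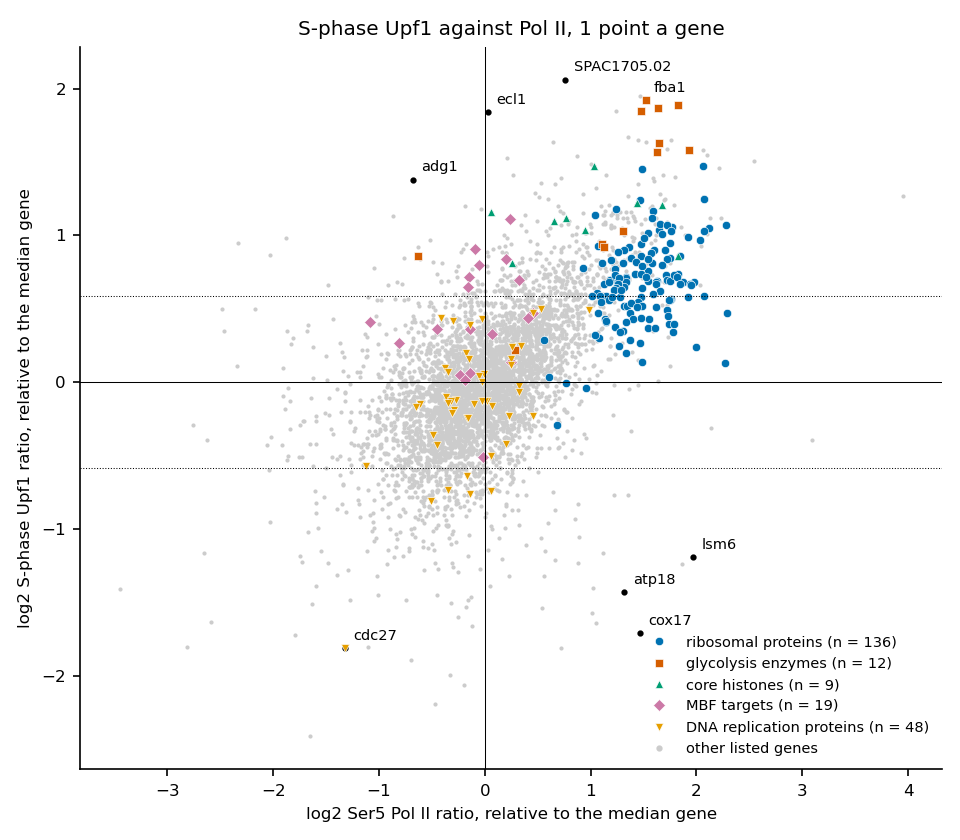
Log2 Upf1 ratio of the S-phase IP (vertical) against the log2 Pol II ratio (horizontal), one point per gene, with glycolysis, histone, MBF target and other groups coloured; fex1, at a Pol II ratio of 9.04, lies off the horizontal axis. Among the 10% of genes highest in Pol II the glycolysis median (1.61) lies above those of the small (0.67) and large (0.68) ribosomal subunit. Single genes of these lists overlap. The MBF targets other than mcl1 lie above the median gene.

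Exceptions to the relation were few. Of 360 genes with a Pol II ratio at least 2-fold above its median gene 250 were at least 1.5-fold above in the S-phase column and 11 at least 1.5-fold below. Beside fex1, cox17, atp18 and lsm6, the 11 held SPBC18E5.09c, uncharacterised, with an S-phase ratio of -1.24 and a Pol II ratio of 1.86. In the other direction, 47 of the 2444 genes that stood under the median gene in Pol II were at least 1.5-fold above in the S-phase column. The ones at least 2-fold above were adg1, SPCC569.03 (1.13, Pol II -0.87), SPAPB15E9.02c (1.20, Pol II -0.19) and SPCC306.11 (1.18, Pol II -0.034), the last 3 uncharacterised. fta6, a kinetochore protein of 260 bp, had the lowest Pol II ratio of the column, -3.45, an S-phase ratio of -1.41 and an RNA level of 5.93.

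GC content moved with the S-phase ratio as well, whereas with length mainly the spread of the ratios changed. Across genes matched to the annotation Spearman's rho was 0.499 with GC content and 0.0725 with length. In the 10% of genes lowest in GC content 30.2% were at least 1.5-fold below, with a median of -0.34, and in the highest 10% 44.7% were above, with a median of 0.53. Its part in the ratio was not tested. In the shortest 10% of genes the S-phase ratios had an SD of 0.68, with 104 above and 80 below, against 0.39 in the longest 10%. Short genes were thus frequent at both ends of the column. The 132 non-coding RNAs had 16 above and 43 (32.6%) below, with a median of -0.32 and a median Pol II ratio of -0.33, and 4729 coding genes had a median of 0.0061.

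**Figure D4:**
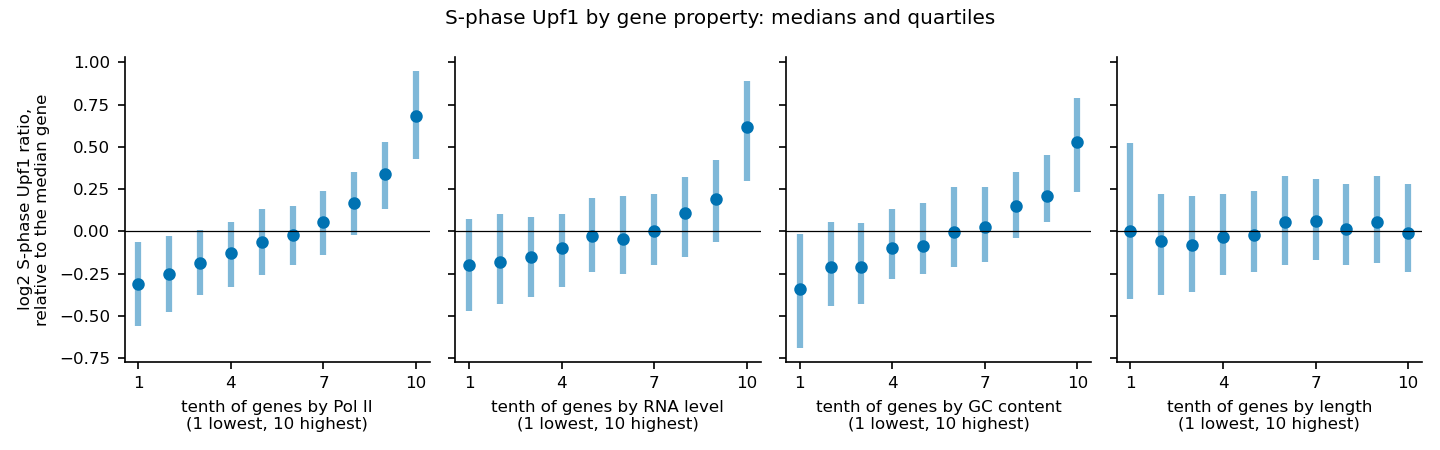
Median log2 Upf1 ratio of the S-phase IP in 10 classes of equal size of the genes ordered by Pol II ratio, RNA level, GC content and gene length, low to high (points), with the quartiles of each class as bars. The medians run from -0.31 in the lowest to 0.68 in the highest class of Pol II and from -0.34 to 0.53 over the classes of GC content.

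Chromosome III stood above the other chromosomes. Its genes had a median S-phase ratio of 0.10 with 15.7% at least 1.5-fold above and 4.23% below, beside medians of -0.034 on chromosome I and -0.013 on chromosome II. It held 31.3% of the placed genes among the 100 highest and 11.5% of those among the 100 lowest, against 18.0% of all. Chromosome III was also the highest within each 25% of the genes ordered by Pol II. In the top 25% the medians were 0.58 on III, 0.38 on I and 0.39 on II, and in the lowest 25% -0.14, -0.32 and -0.26. Without the outermost 20 genes at each end the median of chromosome III was 0.084, and with the trend in GC content removed it was 0.087.

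Neighbouring genes were alike to a small degree. Spearman's rho between S-phase ratios of genes next to each other was 0.19 over 4841 pairs, 0.095 at a distance of 2 genes and 0.040 at 5. Most of the genes at least 1.5-fold above stood alone, with 373 single genes, 55 runs of 2, 13 of 3, 2 of 4 and 2 of 5. A run of 5 on chromosome I joined pkd2, rho1, cdc22, fip1 and fio1, with a median S-phase ratio of 0.67 and a median Pol II ratio of -0.094. rho1 is a GTPase of cell wall synthesis, pkd2 a channel of the polycystin family, and the other three were named above as an MBF target and iron uptake genes. The other run of 5 lay at the right end of chromosome III, from SPCC569.06 to SPCC569.01c, with a median of 0.89. It held the spermidine family transporter SPCC569.05c at 1.41. SPCC569.01c and SPCC569.02c of this run have near-identical copies at the left end of chromosome III, which array probes may not separate from them. ecl1, one of the highest genes of the column, lay in a run of 3 between put1, proline dehydrogenase, at 0.66 and nnk1, a protein kinase, at 0.76.

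**Figure D5:**
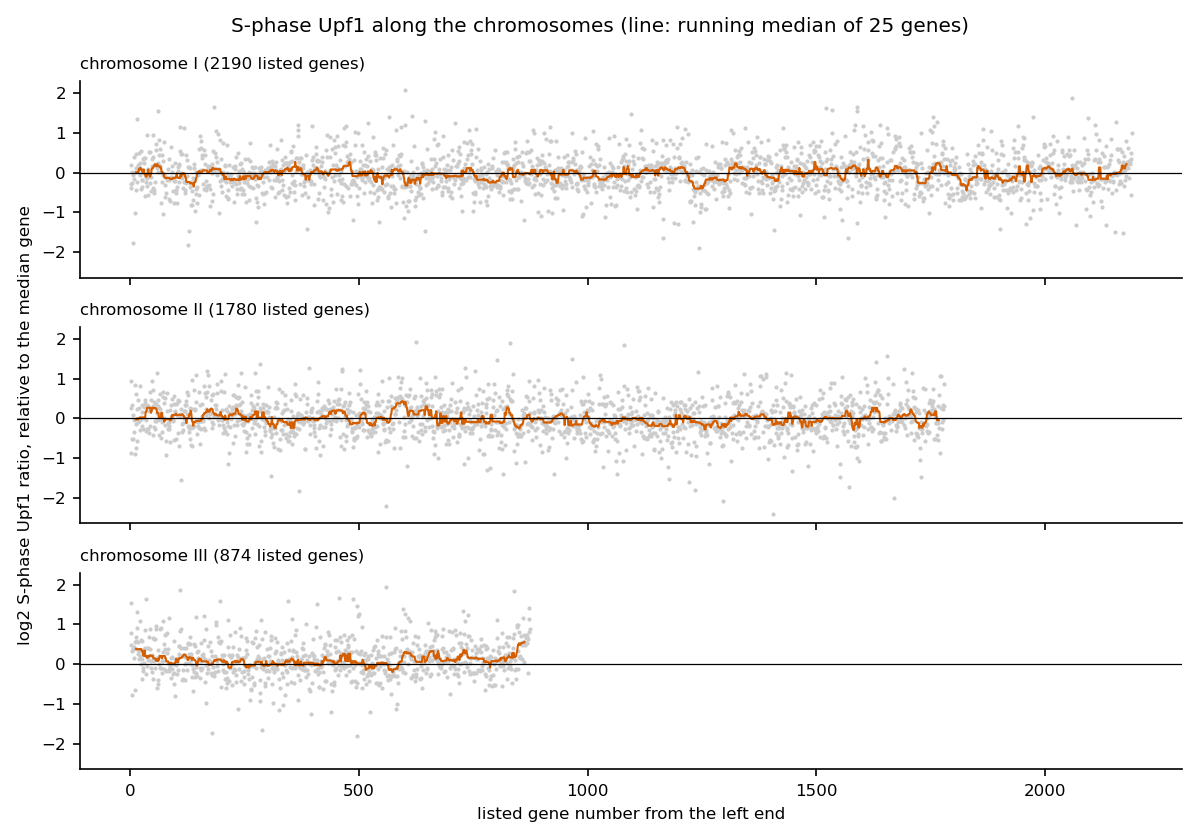
Running median of the log2 Upf1 ratio of the S-phase IP over 25 genes in the order of the genes along each chromosome, plotted against gene number, not position. The curve peaks at 0.56 near nsa2 towards the right end of chromosome III and is lowest, -0.44, near rnh203 on chromosome I.

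Genes that overlap can share probes, which bears on many entries. Over 1094 overlapping pairs of listed genes rho was 0.26 and the median difference between the members of a pair was 0.33, against 0.17 and 0.40 over 3784 adjacent pairs without overlap. Some heavily overlapping pairs still stood far apart. rds1, a stress-responsive gene, had an S-phase ratio of 1.29 and the uncharacterised SPAC343.20 had -1.48, although the overlap covers 88.8% of the shorter gene. gpm1 and mug106, at -0.45, share only 3.79% of the shorter gene. rps902 had 0.69 and pdp1 -0.90 with an overlap of 100% of the shorter gene. The overlaps come from the RefSeq annotation, and the assignment of probes to genes behind the deposited ratios may differ from it.

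Short motifs in the promoters, read as letters only, were not equally frequent at both ends. The promoter was taken as 250 bases before to 50 after the annotated gene start in the RefSeq assembly, on both strands. The HomolD box CAGTCACA, known from ribosomal protein promoters, was in 15.2% of the 100 highest, 1.04% of the 100 lowest and 2.85% of all promoters. It was in 63.2% of the ribosomal protein promoters, and the other 52 genes that held it had a median S-phase ratio of 0.62 with 27 above and a median Pol II ratio of 0.95. The core of the cAMP response element, TGACGT, was in 17.2%, 4.17% and 5.90% of the same 3 sets. Its 283 genes outside ribosomal protein genes had a median of 0.10 with 15.9% above, beside 11.2% of all genes. The histone box AACCCT was in 21.2%, 5.21% and 9.76%, in 9 of 9 histone promoters and in 31.6% of the ribosomal protein promoters. Outside ribosomal protein genes, the 430 genes that held it had a median of 0.019 with 14.4% above, beside 11.2% of all genes. The MCB box ACGCGT, which MBF binds, was in 6.06%, 2.08% and 3.24%, and in 47.4% of the MBF target promoters. Its 151 genes outside ribosomal protein genes had a median of -0.0027 with 9.93% above. The TATA box TATAAA was in 50.5%, 47.9% and 48.4%. A match is a description of the letters and not evidence of binding.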

How the data were processed

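The deposited table lists Upf1 ratios for S. pombe genes from 2 cultures, with a Pol II and an RNA column beside them. For each Upf1 ratio the authors, per the study's methods, summarised the probes of an array as 1 signal for every gene, following Affymetrix's published algorithm. Gene signals of the 2 inputs were brought to equal medians and their mean taken, and this mean was the divisor for the gene's signal on 1 IP array. The authors made the Pol II ratio from published Ser5 Pol II arrays with their own inputs, and the deposited RNA values are natural logs of FPKM plus 1 from published RNA-seq. The genome build behind the probe assignment is not given in the sources used here. Depth does not apply to arrays, and the number of arrays limits the precision.

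Ratio columns were converted to log2 and centred on their median gene. Genes were counted past 1.5-fold, with no test, since each culture has 1 IP array. Of the listed genes 4844 matched the RefSeq annotation, which gave products, lengths, GC content, overlaps and promoters, and 44 did not. Near-identical copies were genes with at least 90% identity over at least 50% of their length (BLAST 2.17.0). Functional lists were written from gene names, and members whose annotated product did not belong were taken out, among them fex1 and fex2 (fluoride channels) from the iron list and RNase P subunits from the ribosomal protein list. The genes named by rule are the 25 at each end of the column, the 3 highest and 2 lowest of each list, genes the study discusses, the 5 leading exceptions to the Pol II relation on each side, and genes that overlap or copy these; not all of them are printed. Other list members given as examples were chosen after their values were seen. The members, lists and rules were chosen with earlier results of these data known. Alternatives were a 2-fold threshold, centring on the 25% of genes lowest in Pol II, removal of the GC trend, and leaving out the shortest 10%, the lowest 20% in RNA level or overlapping genes. Python 3.11.15, numpy 2.4.6, pandas 2.3.3, scipy 1.17.1 and matplotlib 3.10.9 were used, and the counting was tested on simulated data.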

Additional observations from a re-analysis of the deposited data

How the results depend on the processing

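The counts of genes past a fold depend on the threshold and the centre. At least 2-fold above the median gene lay 145 genes and 93 below, in place of 546 and 389 at 1.5-fold. When 0 was set at the median of those 25% of genes that have least Pol II, every gene moved up by 0.26. Then 1110 genes stood above the threshold and 152 genes under it, and 14 of the 31 list medians were at least 1.5-fold above in place of 8. With the GC trend removed, 392 genes were above and 238 below and 3 list medians were above, those of glycolysis (0.96), fermentation (0.69) and the histones (1.06). Among the 401 genes that overlap no other annotated gene, 85 were above and 37 below the median of all genes, and 62 and 48 once these 401 were centred on their own median. On that centre the median of the phosphate-responsive genes was -0.21, from the 1 gene left. Leaving out the shortest genes or those lowest in RNA level, again with a new centre, kept each count within 1.5 times. No paired analysis was possible because each culture has 1 IP array and no test was run. Without replicates the error of a single gene is unknown.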

Other observations

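Groups drawn from the annotated product names, chosen after the values were seen, held further sets on either side of the median gene. Of 40 kinetochore and centromere genes 0 were at least 1.5-fold above and 11 (27.5%) below, beside 11.2% and 7.96% of all genes. The group's median was -0.33, beside a median Pol II ratio of -0.34. The group misses members whose product name does not say kinetochore, such as fta6. Within it, mis18 was lowest, followed by sim4 at -1.28, spc25 at -1.19 and fta2 at -1.18, and the highest was fta3 at 0.36 with a Pol II ratio of 1.31. Of 79 spliceosome genes 0 were above and 4 (5.06%) below, the latter under the 7.96% of all genes. Their median was -0.14, beside a median Pol II ratio of -0.21. Plasma membrane transporters had 14 of 36 above and 1 below with a median of 0.46, among them vht1, which takes up biotin, at 1.39 and amt1, an ammonium transporter, at 1.35. Genes for GPI-anchored and other cell surface proteins had 14 of 28 above and 1 below with a median of 0.58, led by knh2 and followed by aah1, a glycosyl hydrolase, at 1.32. Further groups were read as well. Of 147 mitochondrial proteins 5 (3.40%) were above and 19 (12.9%) below, beside 11.2% and 7.96% of all genes, with a median of -0.11. Uncharacterised proteins had a median of -0.052, ubiquitin and SUMO ligases -0.047, and RNA polymerase I and III and transcription factor proteins 0.084.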
